A study of Mus musculus with 14 samples.

Results

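The Nanog locus was followed as a window of 400 kb of mouse chromosome 6, from 122450000 to 122850000 in mm10, which holds Nanog and its neighbours Apobec1, Gdf3, Dppa3 and Slc2a3. The locus was selected on the CTCF and H3K27ac calls of these same lists, among them the 2 CTCF peaks near the Nanog start in each WT list of day 4, with earlier results known. Those calls are therefore a description, and no test was run on them. Every peak of the deposited lists that touched the window was kept. The 311 CTCF peaks of the window, summed over 8 lists, joined into 68 sites when peaks that shared at least 1 bp were merged. The whole series held 445683 CTCF peaks and 86652 such sites. The 2 H3K27ac lists added 47 peaks to the window, of 84300 in all.

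Both genotypes were E14Tg2A mouse embryonic stem cells, grown on mitomycin C-inactivated fibroblast feeders with serum, LIF and the 2i inhibitors at day 0. At day 4 they were embryoid bodies, which were made in hanging drops in serum medium without LIF. K20R cells carried a CRISPR/Cas9 change of CTCF lysine 20 to arginine, a residue in the N-terminal part of CTCF outside its zinc fingers, and WT cells had the unchanged protein. CTCF ChIP-seq had 2 libraries for each genotype and day, and H3K27ac ChIP-seq had 1 library for each genotype, at day 4 alone. How many edited clones stood behind the K20R libraries was not stated, so genotype and clone cannot be told apart. The feeders were present at day 0, and their share of the reads was not tested. With 2 libraries against 2, an exact two-sided permutation test cannot give a p below 0.333.

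CTCF is a zinc finger protein that binds a long, directional motif and halts cohesin as it extrudes chromatin loops, so that pairs of sites whose motifs point towards each other often stand at the feet of a loop. H3K27ac marks active promoters and enhancers. Nanog encodes a homeobox transcription factor of the pluripotency network, and its gene lies among others that are active in early embryos. Dppa3 encodes a maternal factor that protects DNA methylation, Gdf3 a ligand of the TGF-beta family, Slc2a3 the glucose transporter GLUT3, and Apobec1 a cytidine deaminase that edits Apob mRNA. Silencing of the network, Nanog included, is part of the exit from pluripotency in embryoid bodies.

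CTCF sites below are named by the distance of their summit from the first annotated start of Nanog (position 122707489, plus strand), with minus signs for the Apobec1 side and plus signs for the Slc2a3 side. The sequences shown first are those of sites in or near the Nanog gene, of the sites that bordered it in every list, and of the window's strongest site. A matrix of 19 bases was learned from the strongest peaks of the day 0 WT lists, and its most frequent bases read CGGCCACCAGGGGGCGCTG. The best match within 100 bp of a summit is in capitals, on the strand where the motif reads in that direction, with 10 bases of the mm10 reference on either side.
Site at -37.9 kb (chr6:122669531-122669569, plus strand): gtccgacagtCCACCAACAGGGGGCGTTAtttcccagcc
Site at -7.64 kb (chr6:122699824-122699862, plus strand): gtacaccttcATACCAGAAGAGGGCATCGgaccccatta
Site at +1.52 kb (chr6:122708997-122709035, plus strand): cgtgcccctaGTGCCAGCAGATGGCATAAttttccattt
Site at +3.05 kb (chr6:122710502-122710540, minus strand): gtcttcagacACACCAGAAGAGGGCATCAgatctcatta
Site at +3.73 kb (chr6:122711264-122711302, plus strand): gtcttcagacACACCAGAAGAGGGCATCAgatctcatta
Site at +4.49 kb (chr6:122711976-122712014, plus strand): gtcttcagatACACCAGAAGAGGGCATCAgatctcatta
Site at +6.23 kb (chr6:122713674-122713712, plus strand): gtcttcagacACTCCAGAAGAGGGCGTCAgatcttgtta
Site at +9.74 kb (chr6:122717261-122717299, minus strand): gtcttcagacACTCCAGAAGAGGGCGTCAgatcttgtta
Site at +12.7 kb (chr6:122720146-122720184, minus strand): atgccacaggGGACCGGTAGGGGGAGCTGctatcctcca

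The first site is the strongest of the window, and the sites at -7.64 and +12.7 kb are the nearest ones on each side of Nanog that all 8 lists called. Their motifs point towards each other across 20.3 kb that hold the whole gene. Between them lay 7 further sites. Of these 7, 6 had a motif match, and in 5 of the 6 the match lay in bases that the reference marks as repeats and held the same 12 letters, CCAGAAGAGGGC. The exception was the +1.52 kb site, whose match lay outside marked repeats. The flanking site at -7.64 kb held the 12 letters as well, and those at +12.7 and -37.9 kb did not.

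The repeated letters are of the kind that short interspersed elements of the B2 type have spread through rodent genomes, although the element at each site was not assigned here. Over the window, 19 of 51 matches (37.3%) held them, against 27.2% of the 68083 matches of the whole series, both strands searched. Among the 21 matches at sites called in all 8 lists the share was 19% (16.8% in the series), and among the 30 at sites of fewer lists it was 50% (37.2% in the series). The letters occurred 42 times in the window on either strand, of which 23 copies lay inside a called site and 19 did not. Between the flanking sites of Nanog, 6 of 7 copies lay in a called site. That number leaned on the first WT library of day 0, which called all 7 sites there, 4 of them alone. Over the window, 8 of the 19 matches with the letters lay at sites called in 1 list.

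**Figure D1:**
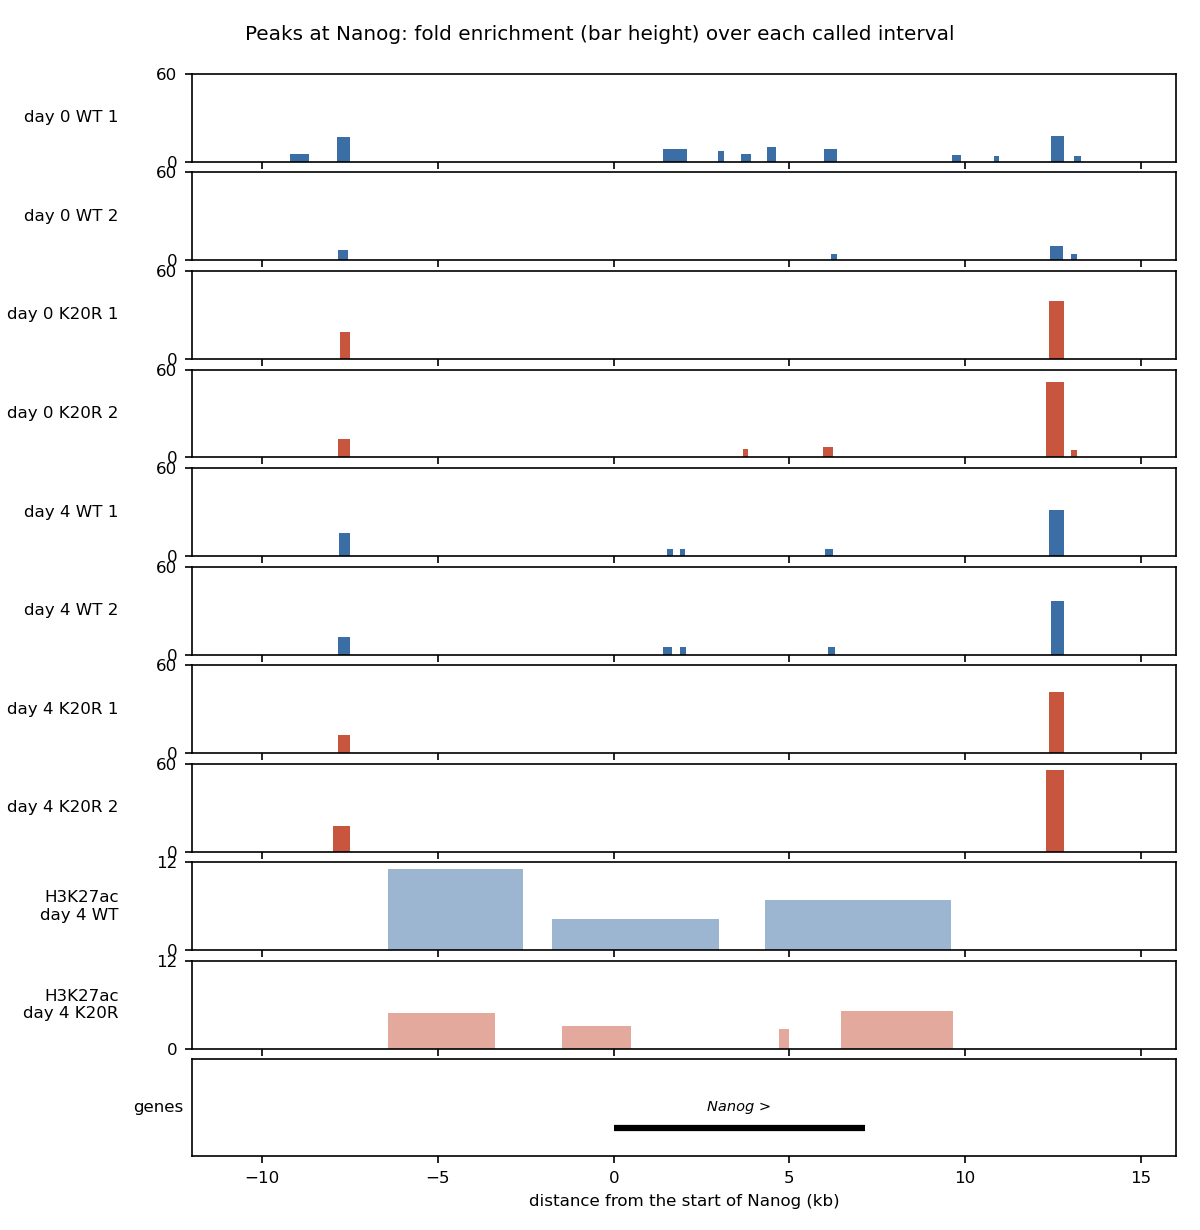
CTCF and H3K27ac peaks from 12 kb before to 16 kb after the start of Nanog, with distance in kb on the x axis, 1 row per library and the fold enrichment of each peak as the height of its bar. The sites at -7.64 and +12.7 kb stand in all 8 CTCF rows, whereas the bars inside the gene stand in WT rows and in the second K20R row of day 0.

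At day 4, Nanog had CTCF peaks in both WT lists and in neither K20R list. Each WT list had 2 peaks within 3 kb of a Nanog start, and both fell in the site at +1.52 kb (chr6:122708887-122709577, an intron of Nanog), since a single wider peak of the first day 0 WT library spanned them. Fold enrichment, the caller's ratio of reads to local background at the summit, was 4.86 and 4.56 for the 2 peaks of the first WT library and 4.86 and 5.07 for those of the second. These peaks were weak in their own lists, at the percentiles 7.15 and 6.35 in the first and 7.47 and 8.75 in the second.

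The pileup, the number of reads stacked over a summit, could be worked back from the listed ratio and p. It was 8 and 8 in the first WT library and 8 and 9 in the second. At the background of this site a call needed a pileup of 6. The WT summits were thus close to the lowest pileup that is called here, and the K20R pileups below the call were not listed.

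At day 0 the genotypes did not separate at this site. The first WT library had a peak of 8.65-fold with a pileup of 24, and the second WT library and both K20R libraries had none. That first library also called all 7 sites between -7.64 and +12.7 kb, against 1 in the second WT library and 0 and 2 in the K20R libraries. At day 4 both WT libraries called 2 of the 7, and both K20R libraries called 0.

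The second of those 2 was the site at +6.23 kb (chr6:122713444-122713832), in the untranslated 3' part of the Nanog transcript. At day 0 both WT libraries called it, at 8.48 and 4.42-fold, as did the second K20R library at 7.43-fold, and the first K20R library did not. At day 4 it was 4.69 and 5.27 in WT, with pileups of 10 and 11 where 7 would have been enough, and no K20R library had it. The day 4 values of WT lay below the one K20R value of day 0.

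The 2 flanking sites were present throughout. At -7.64 kb fold enrichment was 16.6 and 6.88 in WT and 18 and 12.6 in K20R at day 0, and 15.7 and 11.7 in WT and 12.4 and 17.8 in K20R at day 4. The genotypes overlapped on both days. At +12.7 kb it was 17.6 and 10.1 in WT and 39.7 and 51.2 in K20R at day 0, so that both K20R libraries lay above both WT libraries, and 31.2 and 36.4 against 42.0 and 55.6 at day 4, with the same order. Fold enrichment was higher over the whole of the K20R lists as well (list medians of 14.8 to 18.8 against 11.5 to 13.0 in WT). Ranked within its own list, the +12.7 kb site stood higher in K20R at day 0 (79.4 and 89.6 against 61.0 and 43.9) and overlapped at day 4 (93.5 and 87.2 against 89.9 and 95).

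Around Nanog, H3K27ac was lower in the K20R library at day 4 in all 3 regions within 10 kb of the start, while the other shared regions of the window went either way. Upstream of Nanog, between -6.43 and -2.58 kb (chr6:122701056-122704909), the WT list had a peak with a mean fold enrichment of 11.1, the highest of the window in WT. The K20R list had 4.83 there over 3047 bases against 3836. The peak over the start (chr6:122705720-122710489) had 4.30 over 4770 bases in WT, and 3.08 over 1982 bases in K20R. The region that begins 4.30 kb after the start had 6.81 over 5292 bases in 1 peak of WT, and 5.10 as the higher of 2 peaks over 3462 bases in K20R.

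Within the gene body of Nanog, H3K27ac peaks covered 81.9% of the bases in WT and 20.4% in K20R. From 10 kb before to 10 kb after the gene the shares were 51.2% and 31.3%. The CTCF sites at +1.52 and +6.23 kb overlapped a WT H3K27ac peak and no K20R peak. With 1 library per genotype these differences have no replicate check, and whether the libraries differed in depth is not known.

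**Figure D2:**
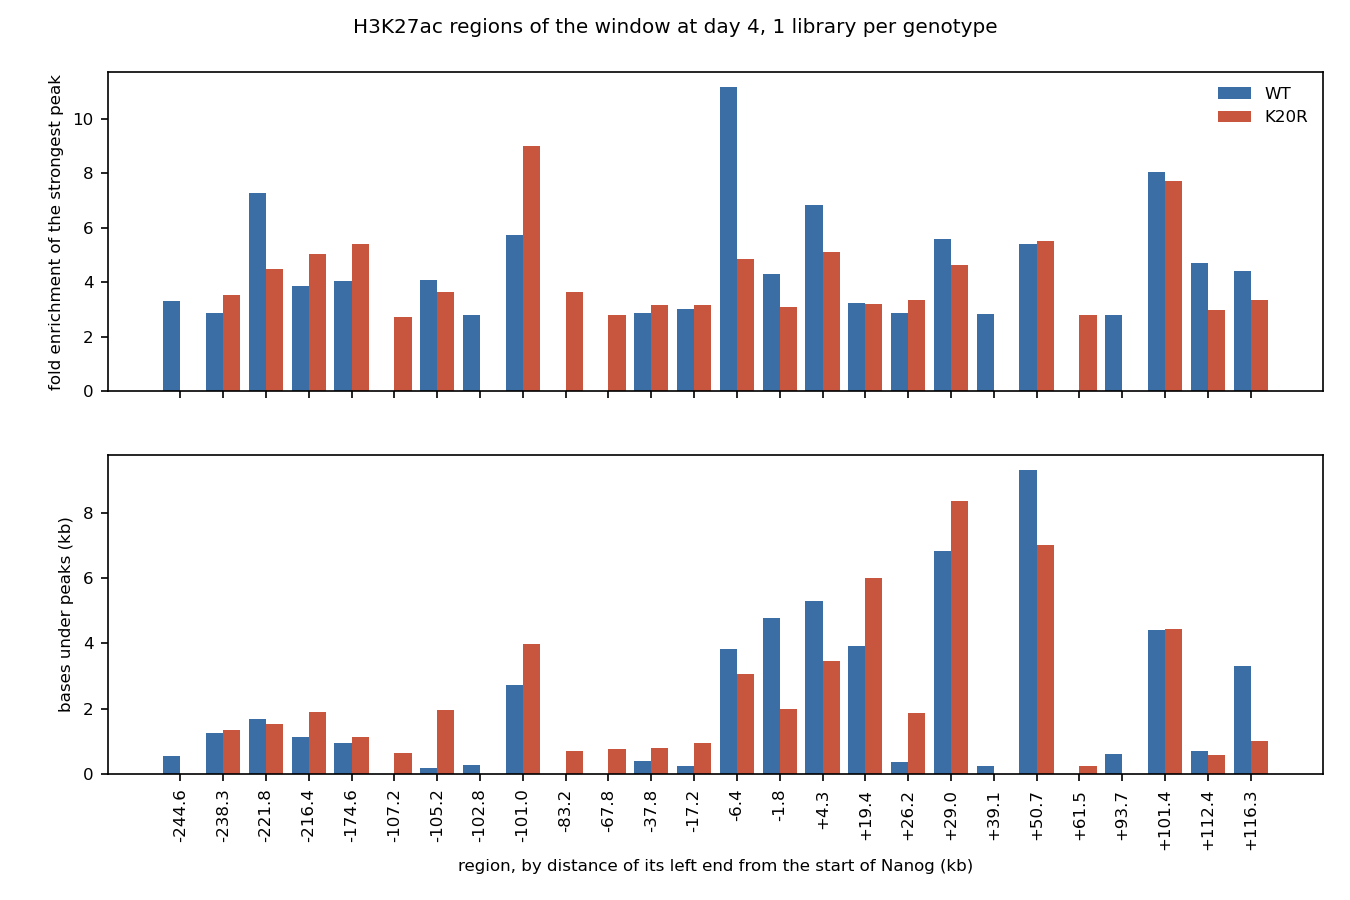
H3K27ac regions of the window at day 4, ordered by the distance in kb of their left end from the Nanog start, with the fold enrichment of the strongest peak above and the kb under peaks below, as 1 bar per genotype and 1 library each. WT stands above K20R in both panels at the 3 regions that begin at -6.43, -1.77 and +4.30 kb, and K20R stands above WT at Gdf3.

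Merged over both lists, the window held 26 H3K27ac regions, of which 18 had peaks in both genotypes, 4 in WT alone and 4 in K20R alone. Of the 24 WT peaks, 4 (16.7%) overlapped no K20R peak, against 36.9% of the whole WT list. Of the 23 K20R peaks, 4 (17.4%) overlapped no WT peak, against 46.9% of the whole K20R list. Both shares were below the background. The peaks of the window were also wider, with median widths of 1192.5 bases against 885 in the whole WT list. In K20R they were 1532 against 883. Whether width accounts for the lower shares was not tested. Peaks covered 53.0 kb of the window in WT and 53.7 kb in K20R, a ratio of 1.01 that turned below 1 at a stricter q, while the K20R list covered 1.19 times as many bases as the WT list in the whole genome.

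Among the 18 shared regions, fold enrichment was lower in K20R at 10 and higher at 8, with a median K20R to WT ratio of 0.976 (0.998 over all 22654 shared regions of the genome). The lowest ratio of the window, 0.433, was that of the region upstream of Nanog. The highest, 1.57, was that of Gdf3, where a peak over the gene and its start had 5.72 over 2733 bases in WT and 8.99 over 3988 bases in K20R. At Dppa3 the K20R list had a peak of 3.65 (chr6:122624342-122625058) just before the gene, and the WT list had none within 3 kb of its start.

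The region over the start of Slc2a3 had a fold enrichment of 5.598 (the higher of 2 peaks, 6817 bases) in WT and 4.63 (8356 bases) in K20R. The widest peak of the window begins 50.7 kb after the Nanog start, between Slc2a3 and Gm5112. There the WT list had 5.40 over 9298 bases, and the K20R list 5.50 over 7020 bases. The region at the gene Gm5112 had 8.03 and 7.72. Near the starts of Apobec1, the shared region had 4.07 over 195 bases in WT and 3.63 over 1961 bases in K20R. A further peak of 2.79 was in WT alone, and another of 2.71, at a different place, was in K20R alone. Foxj2, a forkhead factor gene at the far end of the window, had 4.70 in WT and 2.98 in K20R at its start. That ratio of 0.635 was lower than the ratios of 0.714 over the Nanog start and 0.748 after it. Lower still was the ratio of 0.615 at a start of Rimklb, at the opposite end, with 7.25 in WT and 4.46 in K20R. Another region near a Rimklb start was higher in K20R, with 2.87 in WT and 3.52 in K20R. The region that begins at +116.3 kb had 4.42 over 3312 bases in WT and 3.33 over 999 bases in K20R.

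Across the window, the number of CTCF peaks was 63 and 38 in WT and 30 and 37 in K20R at day 0, and 43 and 40 in WT and 27 and 33 in K20R at day 4. Both K20R libraries of either day lay below both WT libraries of that day. The means were 41.5 ± 2.12 in WT and 30 ± 4.24 in K20R at day 4 (SD, n = 2), so that the window fell by 27.7% and the whole lists fell by 27.5%. At day 0 they were 50.5 ± 17.7 and 33.5 ± 4.95, so that the window fell by 33.7% and the whole lists fell by 20.2%. The window thus lost peaks at day 4 in nearly the same proportion as the genome.

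The first WT library of day 0 stood apart, with 77657 peaks against 41360 to 61436 in the other 7 lists. It alone called 17 of the 68 sites (25%, against 13.6% of all sites). Without it the window held 51 sites, and the day 0 difference between K20R and WT went from -17.0 to -4.5 peaks.

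**Figure D3:**
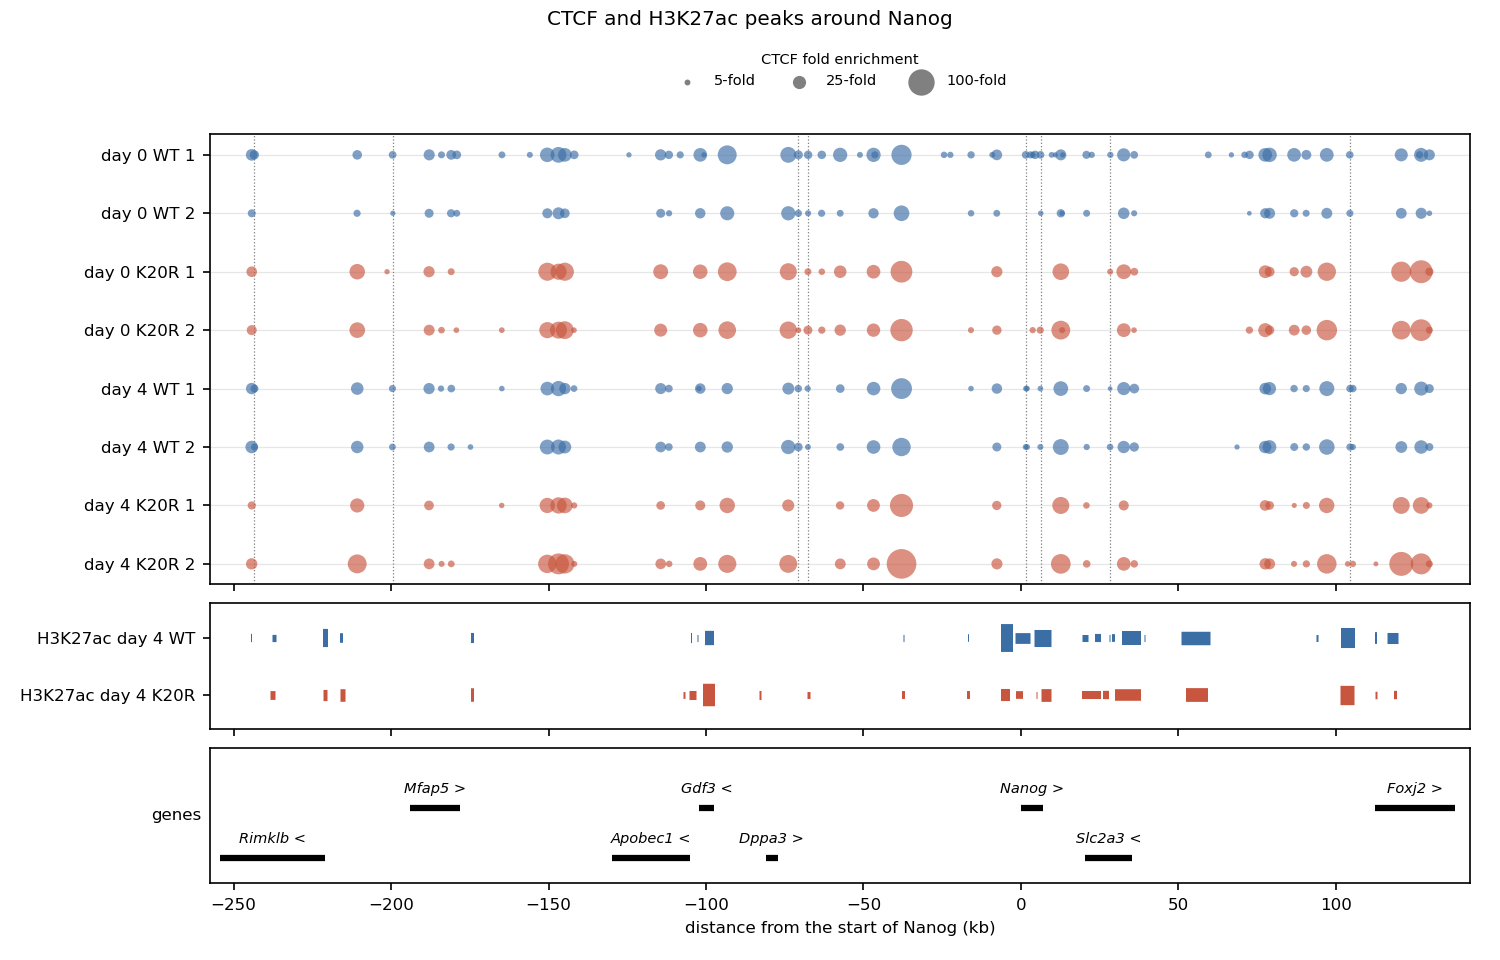
Position in kb from the Nanog start (x axis) of the CTCF summits of the window in each of the 8 libraries, with the area of a dot in proportion to fold enrichment, above the H3K27ac peaks of day 4, whose line width is in proportion to fold enrichment, and the protein-coding genes named in the text. Dotted lines mark the 8 sites in both WT and no K20R list at day 4, and all 8 carry small dots.

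A site was counted as lost where both libraries of the first group called it and neither of the second did, and as gained in the reverse case. Between WT and K20R at day 4, 8 of 37 window sites were lost (21.6%), against 18.8% of all sites, and 0 of 26 were gained, against 0.536%. At day 0, 4 of 38 were lost, against 7.69%, and 0 of 27 were gained, against 0.426%. From day 0 to day 4 in WT, 4 of 38 were lost, against 5.75%, and 1 of 37 was gained, against 3.81%. In K20R 2 of 27 were lost over the same time, against 9.1%, and 1 of 26 was gained, against 1.18%. The share lost at day 4 was thus close to its background, and the other counts were small.

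The day 4 count depended on the length of the lists. With every list cut to the 41360 peaks of the shortest, 0 of the window's sites were lost and 2 were gained, at +20.8 and +90.6 kb, and K20R had 2.0 peaks more than WT. Over all sites the shares were 5.63% lost and 4.89% gained in the same lists. With only peaks of a -log10 q of at least 5, the sites at -243.4, -199.5, -70.7 and +104.4 kb were still lost, against 16.5% of all sites, and those in Nanog were no longer called in both WT libraries.

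The 8 sites of day 4 were spread from Rimklb to Gm5112. In order they lay in an exon of Rimklb (-243.4 kb), before Mfap5 (-199.5 kb), beyond Dppa3 (-70.7 and -67.6 kb), in Nanog (+1.52 and +6.23 kb), in an intron of Slc2a3 (+28.3 kb) and in an exon of Gm5112 (+104.4 kb). Their WT pileups at day 4 ran from 5 to 18 with a median of 11, where a call in a K20R list needed 5 to 7. The 25 sites kept by all 4 libraries of day 4 had 12 to 119 with a median of 47. In percentiles of fold enrichment within the WT lists, the medians were 22.1 for the lost and 72.0 for the kept sites of the window, and 22.0 and 68.2 over the whole genome.

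**Figure D4:**
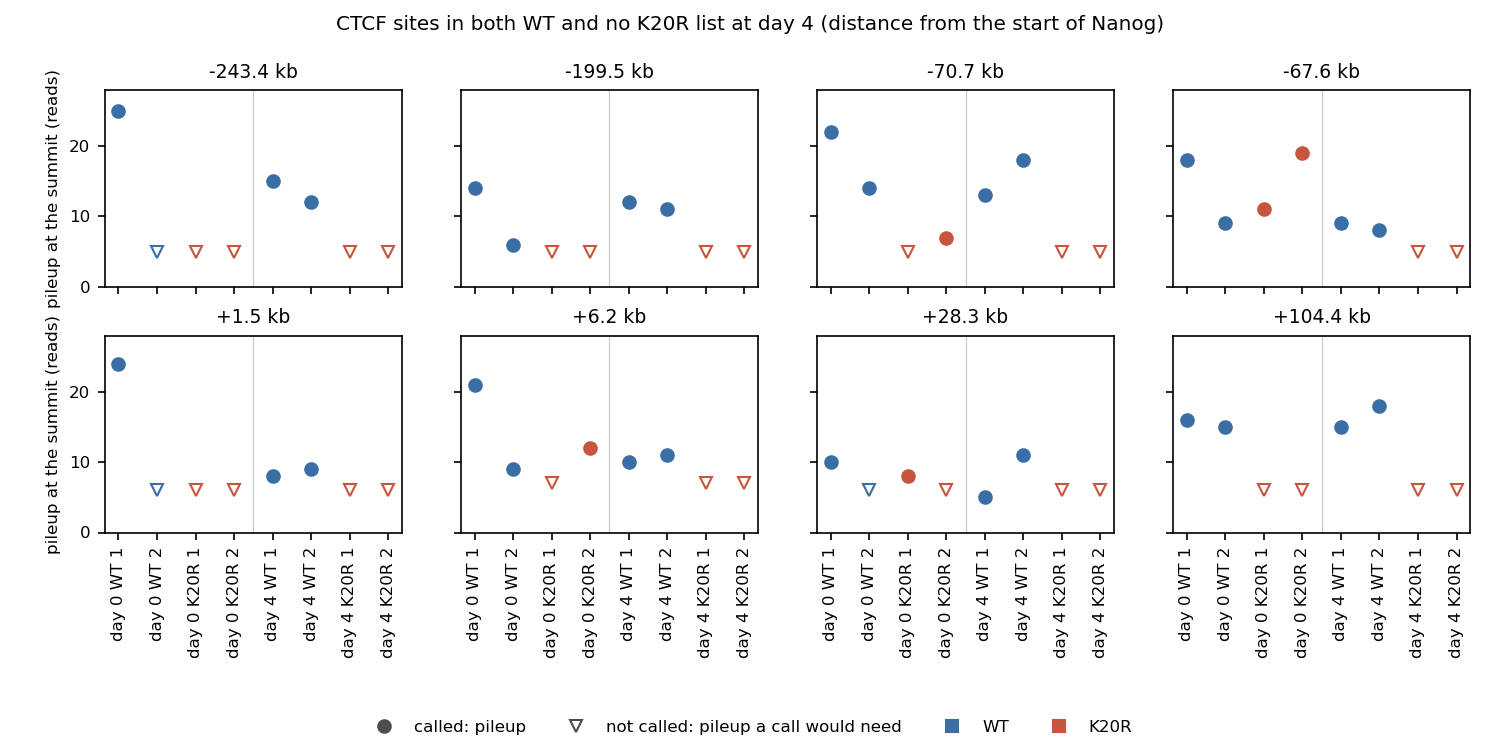
Pileup in reads at the summit (y axis) in each library (x axis) for the 8 sites in both WT and no K20R list at day 4, 1 panel per site, named by its distance from the Nanog start. Filled points are called peaks, and open triangles mark the pileup that a call would have needed in a library with none, which is 5 to 7 in every panel.

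Beyond Dppa3, the site at -67.6 kb (chr6:122639661-122640019) was in all 4 lists of day 0 and left the K20R lists with differentiation. Its fold enrichment was 10.4 and 5.43 in WT and 6.97 and 11.6 in K20R at day 0, and 5.70 and 5.05 in WT at day 4. The WT values of day 4 straddled the lower WT value of day 0. A K20R H3K27ac peak of 2.77, low in its list at the percentile 5.58, lay over this site at day 4, and no WT peak did. Next to it, the site at -70.7 kb had 11.8 and 7.54 in WT and 4.64 in 1 of the K20R libraries at day 0, and 7.98 and 10.8 in WT at day 4.

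A pair of sites was lost on both days and in no K20R list at all. In WT the site at -199.5 kb had 8.63 and 4.01-fold before and 7.34 and 6.77-fold after differentiation, and its motif match held the 12 repeated letters. The site at +104.4 kb, in Gm5112 and inside the strong H3K27ac region there, had 8.34 and 7.30-fold before and 8.11 and 7.72-fold after, and it had no motif match. In these 4 libraries each site kept a pileup of 6 to 18.

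The sites at -243.4 and +28.3 kb were each called in 1 WT library of day 0. At -243.4 kb the first WT library of day 0 had 12.3 and the second had none, and WT at day 4 had 9.12 and 7.40. No K20R list of either day had the site at -243.4 kb, nor that at +1.52 kb. At +28.3 kb, in Slc2a3, fold enrichment was 5.65 in the first WT and 5.23 in the first K20R library of day 0, and 3.17 and 6.33 in WT at day 4. The value of 3.17 rested on a pileup of 5, the least that any list called.

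Of the 8 lost sites 6 had a motif match (75%, against 73.3% of all sites lost at day 4), as had 22 of the 25 kept sites (88.0%, against 91.4%). Over the window, 51 of 68 sites had one (75%, against 78.6% of all sites). A WT H3K27ac peak overlapped 4 of the 8 lost sites (50%), against 9.02% of all lost sites, and 3 of the 25 kept sites (12%), against 11.7%. A K20R H3K27ac peak overlapped 2 of the 8 lost sites (25%), against 10.2% of all lost sites, and 3 of the 25 kept sites, against 15.2%. The 4 lost sites that overlapped a WT peak were the sites in Nanog, Slc2a3 and Gm5112. The locus was selected on these same calls, those at +1.52 kb among them, so the 50% is a description. WT H3K27ac peaks also covered 53.0 kb of this 400 kb window, against 55.74 Mb in the whole genome. A link between lost CTCF sites and H3K27ac was not tested. The Slc2a3 site touched its peak only at the edge, since the peak ended at 122735701 and the CTCF summit lay beyond it at 122735802.

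At day 0 the lost sites were those at -199.5 and +104.4 kb, a site in an intron of Apobec1 (-111.8 kb) and one in the 3' end of Slc2a3 (+20.8 kb). The Apobec1 site had 10.3 and 5.63 in WT at day 0, then 8.55 and 8.54, while K20R had it at 6.11 in the second library of day 4 alone. The Slc2a3 site had 9.51 and 7.03 in WT at day 0 with no K20R peak. At day 4 it had 6.91 and 5.69 in WT and 6.18 and 8.29 in K20R, so it was the site that K20R gained with differentiation, and the genotypes then overlapped.

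With differentiation, WT lost the sites at -179.1, -63.2, +13.1 and +72.6 kb and gained one in Gm5112 at +105.4 kb, of 8.11 and 5.57, which the second K20R library also had at 5.82. K20R lost the sites at -67.6 and -63.2 kb. The site at -63.2 kb left both genotypes, with 10.4 and 7.44 in WT and 6.11 and 7.65 in K20R at day 0 and no peak at day 4.

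Near the starts of the other listed genes, the CTCF calls were sparse or steady. Dppa3 and Gdf3 had no CTCF peak within 3 kb of a start in any of the 8 lists. Farther from its start, an untranslated part of Gdf3 held the summit of the site at -101.8 kb. Apobec1 had 2 and 0 peaks in WT and 1 and 1 in K20R at day 0, and 1 and 1 against 0 and 1 at day 4. These counts turned on peak edges, since the site at -101.8 kb, called in all 8 lists, has its summit 3231 bp from an Apobec1 start. A count of 0 thus meant a peak whose edge fell short of the 3 kb limit, not a missing site. Slc2a3 had 2 in every list except the first K20R list of day 4, which had 1.

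The peak near Slc2a3 in all lists, at +32.7 kb, had a fold enrichment of 24.9 and 19.1 in WT and 31.5 and 27.4 in K20R at day 0, and 24.8 and 22 against 14.6 and 27 at day 4. In fold enrichment K20R lay above WT at day 0, and the genotypes overlapped at day 4. In percentiles within each list, K20R instead ranked below WT without overlap on both days, with a mean difference of -7.97 at day 0 and -22.6 at day 4. Ranked among the sites of all 8 lists, the differences were -2.71, with overlap, and -16.8. Its neighbour just before the start, at +36.0 kb, was the one missing from the first K20R list of day 4. It had 8.65 and 5.37 in WT and 8.74 and 4.66 in K20R at day 0, and 13.7 and 12.7 in WT against 8.18 in the second K20R library at day 4.

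The 24 sites in all 8 lists (35.3% of the window's sites, against 42.1% of all sites) were ranked by fold enrichment within each list. The strongest was the site at -37.9 kb (chr6:122669048-122669823), between Dppa3 and Nanog, with 58.8 and 35.4 in WT and 68.3 and 72.0 in K20R at day 0, and 62.5 and 48.9 against 76.9 and 126.4 at day 4. It stood at the percentiles 95.9 to 99.9 of every list. High mean percentiles were also found at +127.1 kb in Foxj2 (87.7), at +97.1 kb between genes (86.3) and at -93.3 kb beside Gdf3 (83.4).

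At day 4 the K20R percentiles of 12 of the 24 sites lay below both WT values (50%, against 54.2% of 36440 sites) and those of 5 lay above (20.8%, against 14.4%), with a median difference of -7.02 (-8.79 over all). At day 0, 6 lay below and 6 above (25% each, against 40% and 16.7%), with a median of -2.48 (-4.9 over all). The percentiles depend on how many weak peaks a list holds, and the K20R lists were shorter. Ranked among the sites of all 8 lists alone, the medians became 0.643 at day 4 (10 below, 8 above) and 1.67 at day 0 (4 below, 10 above).

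**Figure D5:**
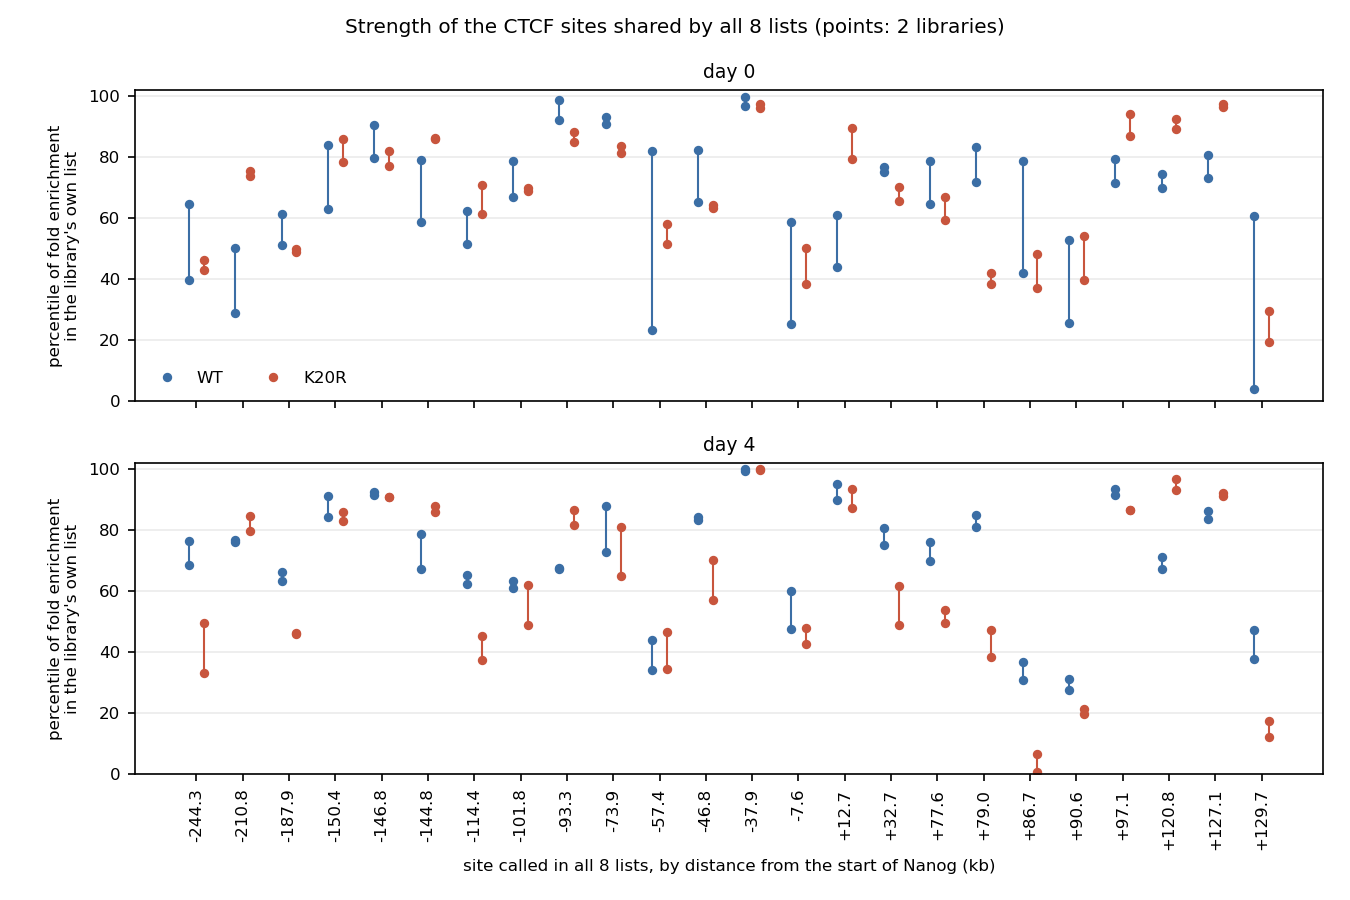
Percentile of fold enrichment within the library's own list (y axis) at the 24 sites called in all 8 lists, ordered by distance in kb from the Nanog start (x axis), with 1 point per library and a line that joins the 2 libraries of a genotype, at day 0 above and day 4 below. The site at +79.0 kb stands lower in K20R on both days, and that at +120.8 kb stands higher.

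The site at +79.0 kb, between Slc2a3 and Gm5112, had the lowest difference on both days, -37.4 at day 0 and -40.3 at day 4. Its percentiles were 83.4 and 71.8 in WT and 42.0 and 38.3 in K20R at day 0, and 81.1 and 85.0 against 38.3 and 47.2 at day 4. The site at +120.8 kb, in an exon of Foxj2, was the highest at day 4, with 67.2 and 71.2 in WT and 93.1 and 96.8 in K20R, a difference of 25.7. At day 0 it had 74.4 and 69.8 against 92.6 and 89.1. Ranked among the sites of all 8 lists, the differences were -44.4 and -40.4 at +79.0 kb, and 35.4 and 45.0 at +120.8 kb.

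Of 21 sites in all 8 lists with a motif match, 8 had it on the plus strand and 13 on the minus strand. On the Apobec1 side of Nanog the numbers were 4 and 8, and on the Slc2a3 side 4 and 5. The promoter of Nanog in RefSeq (GRCm38, 250 bases before to 50 after the start) held a match with a score of 9.32, just over the threshold of 9.19, as did 16.3% of 32851 promoters, and no CTCF peak lay there in any list.

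A list of 16 other pluripotency genes (Pou5f1, Sox2, Klf2, Klf4, Klf5, Esrrb, Tbx3, Tfcp2l1, Prdm14, Zfp42, Sall4, Dppa2, Dppa4, Lin28a, Tdgf1 and Utf1) was read in the same way. Of the 16, 12 had a CTCF site within 3 kb of a start, with 20 sites in all. Both WT lists of day 4 called 13 of the 20. Of these 13, K20R had lost 1, at Tdgf1, which encodes a Nodal co-receptor, against the 18.8% of all sites given above, and 9 were in all 4 lists. H3K27ac lay within 3 kb of a start of 10 of the 16 genes in WT and 12 in K20R, against 51.4% and 52.7% of 21924 protein-coding genes.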

How the data were processed

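CTCF ChIP-seq lists of 8 libraries (2 biological replicates per genotype and day, per the study's methods) and H3K27ac lists of 2 libraries were used. The 4 input samples were not analysed here. Per the study's methods, the authors used Trim Galore for trimming and Bowtie2 for alignment to mm10, dropped poorly mapped and duplicate reads and blacklisted regions, subsampled CTCF libraries to one common depth, and called peaks with MACS2 (broad mode for H3K27ac) in each library. Which input served as control, and whether H3K27ac libraries were subsampled, is not given in the sources used here. The deposited values are a fold enrichment (a ratio to local background, at the summit for CTCF and averaged over the peak for H3K27ac), −log10 p and −log10 q, and a display score that was not used. No read counts were used, so the depth behind a peak is known only through its pileup.

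Peaks sharing at least 1 bp were merged into sites. The pileup and background were solved from the deposited ratio and −log10 p, and gave whole numbers within 0.01 for every peak solved (those with −log10 p under 300). Gene limits and starts came from GENCODE M21 basic, and sequences from GRCm38. A motif match had a score that 5% of sequences shifted by 1 kb passed. Sites were described in full where lost or gained in a comparison, near a start of a listed gene, or among the 5 strongest in all lists, 1 of which is not reported here. The window, the members and the gene lists were chosen with earlier results of these data known. Scripts were tested on simulated data and used Python 3.11.15, pandas 2.3.3, scipy 1.17.1 and samtools 1.23.1. The alternatives were a stricter q, lists of equal length, each CTCF library left out, summit windows, −log10 p in place of fold enrichment, a wider window, other distances, joined H3K27ac peaks and other motif settings.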

Additional observations from a re-analysis of the deposited data

Results flagged for a closer look

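The genotype difference ran one way at day 0 and the other way at day 4 at 2 of the 24 sites in all 8 lists, with both K20R libraries outside the WT range on both days, and the difference between the days was not tested. At -93.3 kb, beside Gdf3, the K20R minus WT percentile of fold enrichment was -8.94 at day 0 and 16.8 at day 4, a change of 25.7. At +97.1 kb it was 15.1 and -5.92, a change of -21.0. The same pattern was met at 11.3% of the 36440 sites of the genome, so 2 of 24 is not more than the background. Both sites kept these signs when ranked among the sites of all 8 lists. No single-library flag was computed, since the groups held 2 libraries each.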

How the results depend on the processing

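No paired analysis was possible because no result came from a test. Of 181 recomputed values of 19 results, 140 were rated the same. Peak and percentile differences had to keep their direction and stay within 1 SD of the replicates. Site counts and H3K27ac values had to stay within 1.5 times. The motif share had to stay within its binomial confidence interval of 63.6% to 83.8%. An unchanged value was always rated the same. Leaving out 1 library gave 112 of the 181, and some of these could not change, because the library left out was not part of the result. The count of 140 is therefore no measure of robustness. With lists of equal length, the K20R minus WT difference in window peaks became 2.0 at day 4 and -2.0 at day 0, and that near the Nanog start 0.0 on both days. Sites lost between genotypes became 0 (day 4) and 1 (day 0), sites gained at day 4 became 2, sites lost with differentiation 2 in WT and 0 in K20R, and the median percentile differences 0.641 (day 4) and 3.16 (day 0). Keeping only peaks past a −log10 q of 5, the difference near the Nanog start was 0.0 at day 4, the sites lost at day 4 were 4, the day 0 percentile difference was 1.16, and the H3K27ac peaks were 10 in WT and 9 in K20R, over 41973 bases in WT and 34569 in K20R, so that K20R covered less of the window than WT, not more. Ranks among the sites of all 8 lists, chosen after seeing the data, gave 0.643 and 1.67. With summit windows merged, WT gained 2 sites with differentiation, and in the wider window K20R lost 4. Within 1 kb of the Nanog start the differences were 0.0, and within 10 kb they were -3.0 on both days. At the stricter motif score 35.3% of window sites had a match.

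Leaving out each library in turn, the peak difference ranged from -14.5 to -8.5 at day 4 and from -29.5 to -4.5 at day 0, and that near the Nanog start stayed at -2.0 at day 4 and ranged from -2.0 to 0.0 at day 0. The -2.0 could not change, since each WT list of day 4 had 2 such peaks and each K20R list had 0. Sites lost between genotypes ranged from 8 to 12 (day 4) and from 4 to 23 (day 0, 23 without the second WT and 10 without the second K20R library), sites gained from 0 to 2 and from 0 to 1. With differentiation, losses ranged from 4 to 22 in WT (22 without the second WT library of day 0) and from 2 to 9 in K20R (9 without its first library of day 0), and gains from 1 to 5 in both (5 without the first WT library of day 0 and the first K20R library of day 4). The median percentile difference ranged from -9.54 to -5.24 at day 4 and from -8.81 to 9.66 at day 0, where it turned positive without the first WT library. Beyond the construction of the shorter lists, the cause of these shifts was not tested. A peak list holds no value for a site below its threshold, so an uncalled site is not one without binding.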
